A study of Mus musculus with 2 samples.

Results

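The entries mmu-miR-6240, mmu-miR-5126, mmu-miR-6236 and mmu-miR-6539 of a mouse microRNA (miRNA) count table are described here, 4 of the 1907 entries listed; the prefix mmu, for mouse, is dropped from here on. They were picked by name because their counts in these same libraries were high and because their names carry late miRBase numbers and no arm. Their abundance is therefore a description and supports nothing. The working label for them, fragments of other RNA classes, was examined against sequence, as described below, and is not used as a name.

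The 2 libraries are small RNA from total RNA of mouse embryonic stem cells with a Dicer knockout, of 129/Ola background, with E14 given as the stage. The cells were kept in 15% serum with LIF, a cytokine that maintains self-renewal, on gelatine. The descriptions call the cells C1 and H11, which here are library 1 and library 2, after the numbers in the titles. Whether they are separate clones, and how the knockout was made, is not given in the sources used here. Both libraries carry the knockout and no cells with Dicer were analysed, so the values say nothing about what Dicer loss changes. As the libraries are replicates of 1 group, the difference between them is the spread between replicates, which may be technical, and no test between conditions exists. In bulk RNA like this, a different number of cells of a type and a different amount of RNA per cell cannot be told apart.

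Dicer trims precursor hairpins to mature miRNAs of about the length that a small RNA kit captures. Such kits also ligate other short RNAs with suitable ends, among them pieces of ribosomal RNA (rRNA), transfer RNA (tRNA) and small nucleolar RNA (snoRNA), and a few entries of miRBase are known to share their sequence with such RNAs. General knowledge links miR-6240 and miR-6236 to rRNA sequence, while no such link is claimed here for miR-5126 and miR-6539. A read is credited to an entry by its sequence or position, so a count does not show which transcript the read came from.

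RefSeq (GRCm38.p6) gave mature sequences for 1623 of the 1907 names and for 3 of the 4 entries. They are shown because the composition of the entries sets them apart from most miRNAs; capitals mark the seed, bases 2 to 8 from the 5′ end.
miR-6240: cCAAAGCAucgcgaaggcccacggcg
miR-5126: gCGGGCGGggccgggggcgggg
miR-6236: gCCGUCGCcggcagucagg

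The mature miR-6240 lies at chr5:114851973-114851998, plus strand, and miR-6236 at chr9:110281353-110281371, plus strand. Their hairpins overlap no other gene of GENCODE M21 (GRCm38), and the nearest protein-coding genes are 4930519G04Rik, 1600 bases away, and Cspg5, 18711 bases away. The mature miR-5126 lies at chr1:84695890-84695911, plus strand, opposite an exon and UTR of Dner, a gene for a Notch-related receptor. The hairpin of miR-6539 lies at chr14:67859636-67859745, minus strand, in an intron of Dock5 on the same strand.

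The 3 mature sequences shared high GC content. The mature miR-5126 consisted of 17 G and 5 C, and its 100% GC was the highest of the 1623 sequences, reached by 1 entry. The mature miR-6236 had 78.9% GC, above 98.8% of the sequences, and miR-6240 had 69.2%, above 94.6%, against a median of 52.2%. They held 4, 4 and 3 CpG dinucleotides in miR-6240, miR-5126 and miR-6236, whereas 66.2% of the sequences held none. The 3 sequences differed otherwise. Their lengths were 26 bases for miR-6240, a length reached by 13 of the 1623 sequences, 22 for miR-5126, the median length, and 19 for miR-6236, a length that 0.986% of the sequences undercut. The longest stretch that any pair had in common was 5 bases, between miR-5126 and miR-6236. None began with U, the first base of 40.2% of the sequences. Among miRNAs numbered 1000 or below that had a mature sequence, those beginning with U held 74.6% and 71.3% of the counts in libraries 1 and 2. Such shares of counts weigh the abundant entries most.

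None of the other mature sequences matched had the seed of miR-5126 or of miR-6236. The seed of miR-6240 recurred in miR-330-3p, which had 0 counts in each library. A count of 0 still allows an expected count of up to about 3.

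The RefSeq table also held hairpins for miR-6240 and miR-5126, which were folded with ViennaRNA and set beside all 1005 mouse hairpins of the table. The miR-6240 hairpin is shown because it was among the weakest folds; it is 117 bases long, at chr5:114851948-114852064, plus strand, with the mature part, bases 26 to 51, in capitals.
Mir6240: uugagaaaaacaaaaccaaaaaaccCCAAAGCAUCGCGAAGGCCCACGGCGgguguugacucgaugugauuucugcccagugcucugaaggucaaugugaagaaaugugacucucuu
Its minimum free energy was -24.7 kcal/mol, or -0.21 kcal/mol per base, and 1.39% of the hairpins folded more weakly per base. The hairpin of miR-5126 folded at -48.4 kcal/mol, or -0.63 per base over 77 bases, more strongly than 96.8% of the hairpins, with a GC content of 83.1%. The median was -0.41 kcal/mol per base. Within the mature part, 73.1% of bases were paired for miR-6240 and 68.2% for miR-5126, against a median of 81.0% over 1528 mature sequences. The 2 hairpins thus stood at opposite ends of the range of folding energy, as the histograms of composition and folding show.

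**Figure D1:**
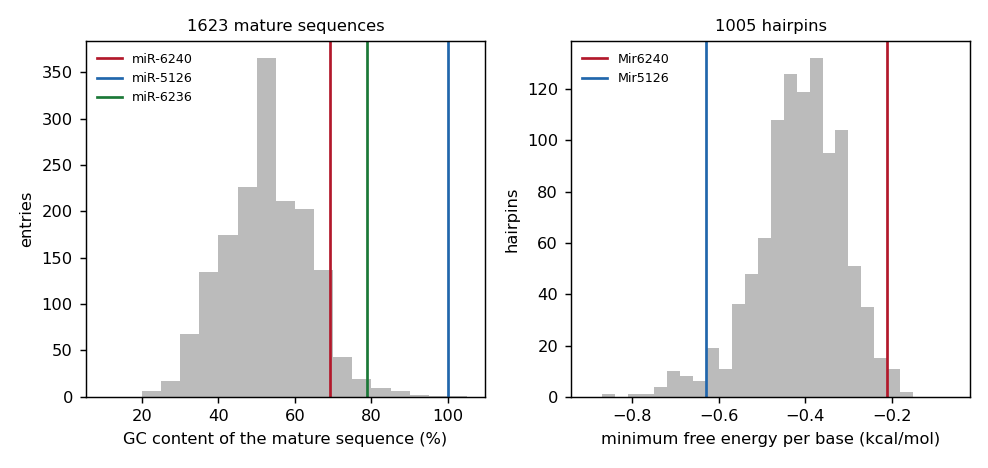
GC content of 1623 mature mouse miRNA sequences (left, x axis in percent, y axis number of entries) and minimum free energy per base of 1005 mouse hairpins (right, x axis in kcal/mol, y axis number of hairpins), in grey, with coloured lines for the entries described. All 3 mature sequences lie above the median of 52.2% GC, and the hairpins of miR-6240 and miR-5126 lie on opposite sides of the median of -0.41 kcal/mol.

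The mature sequences were then searched for in the GENCODE M21 transcripts, to see whether they occur in an annotated RNA of another class. On the sense strand each of the 3 matched its own miRNA gene exactly and no other gene, and allowing 1 mismatch added none. With a match of 18 consecutive bases, miR-5126 also matched the mRNAs Nova2 and Sgpl1, while miR-6240 and miR-6236 still matched only their own genes. On the antisense strand, miR-5126 matched Dner, opposite which it lies, and with 18 consecutive bases also the long noncoding RNA Gm34376. No rRNA, mitochondrial tRNA, small nuclear RNA or snoRNA of the set held any of the 3. This set holds 354 transcripts of rRNA type, the longest of 1849 bases (CT010467.1), and 2 mitochondrial rRNAs. Nuclear tRNA was not among the classes searched, and complete cytoplasmic rRNA and the genome sequence were not used here. An absent match says only that these letters are not in that set.

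Among all 1623 mature sequences, 27 (1.66%) matched a gene typed as structural RNA exactly. For 5 of these the gene was one named for a miRNA and typed as structural, such as Mir3068, typed as snoRNA, for miR-3068-3p. They were set apart by the gene's name only, and whether such a gene also makes another RNA was not tested. The other 22 (1.36%) matched a gene of another name, whose position was not compared with that of the hairpin, and 2 of them had at least 10 counts. The more abundant was miR-5121, which matched Snord33, a snoRNA, over 21 bases, with 268 and 238 counts in libraries 1 and 2. The other was miR-3535, which matched the snoRNA gene Gm24148 over 26 bases, at 118 and 120 counts. Gm24148 is also listed among the hairpins of the RefSeq table. This match may therefore be to the entry's own hairpin, which was not tested. The 22 together held 406 and 369 counts, fewer than miR-6236 alone. Of a list of 13 entries linked in general to rRNA or tRNA, 3 were in the table: miR-6240, miR-6236 and miR-1983, the last at 4 and 5 counts.

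The counts of the 4 entries rest on library totals of 45222 for library 1 and 37476 for library 2. The miR-290 to miR-295 cluster, a marker of embryonic stem cells, was present at 1638 and 1214 counts. A table of miRNAs holds no Dicer mRNA, and the knockout was not checked here. Intervals below cover counting error only, since no molecular identifiers are mentioned and reads may be amplification copies.

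Together the 4 entries had 15089 and 16794 counts in libraries 1 and 2. In library 1 this was 33.4% of all counts (32.9 to 33.8, 95% Wilson interval, as for the other shares). In library 2 it was 44.8% (44.3 to 45.3), and the mean was 39.1% ± 8.09 (SD, n = 2). They were 44.9% and 56.6% of the counts of all 1064 entries numbered above 1000. All other entries of the table together went the other way, with 30133 and 20682 counts. The sum of the 4 was thus larger in the library with the smaller total.

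In both libraries miR-6240 ranked 2, at 6645 counts in the first and 7035 in the second. Its share was 14.7% (14.4 to 15.0) in library 1 and 18.8% (18.4 to 19.2) in library 2. The intervals did not overlap, and the share was 1.28-fold higher in library 2 (exact 95% interval 1.24 to 1.32).

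Rank 3 in both belonged to miR-5126, at 3946 and 5678 counts. Its share was 8.73% (8.47 to 8.99) in library 1 and 15.2% (14.8 to 15.5) in library 2, 1.74-fold higher in library 2 (1.67 to 1.81). This was the largest gain in percentage points of the 4, at 6.43, against 4.08 for miR-6240.

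The entry miR-6236 ranked 9 in library 1 and 7 in library 2, with 655 and 1028 counts. Its share was 1.45% (1.34 to 1.56) in library 1 and 2.74% (2.58 to 2.91) in library 2, 1.89-fold higher in library 2 (1.72 to 2.09). This was the least abundant of the 4 and the one with the largest ratio.

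Rank 4 in both belonged to miR-6539, at 3843 and 3053 counts. Its share was 8.50% (8.24 to 8.76) in library 1 and 8.15% (7.87 to 8.43) in library 2. The ratio of 0.959 had an interval of 0.914 to 1.01, so a difference in share was not detectable at this depth. The 4 entries therefore fell into 3 with a higher share in library 2 and 1 without a detectable difference, as the bar plot of shares shows.

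**Figure D2:**
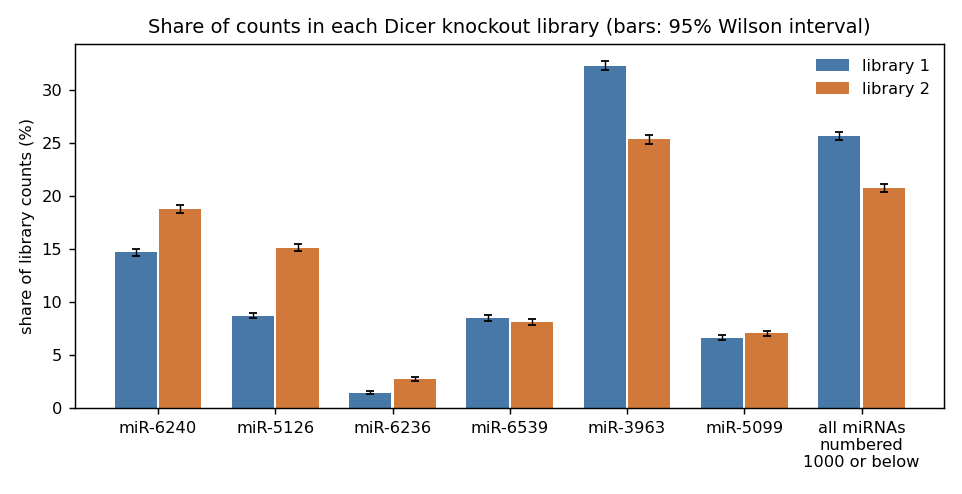
Share of library counts in percent (y axis) of the 4 entries, of miR-3963 and miR-5099, and of all miRNAs numbered 1000 or below, in library 1 (blue) and library 2 (orange). Error bars are 95% Wilson intervals for counting error; miR-6240, miR-5126 and miR-6236 are higher in library 2, miR-6539 is near level at 8.50% and 8.15%, and miRNAs numbered 1000 or below are lower in library 2.

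The size of these ratios was read against all entries whose counts summed to at least 10 over both libraries. Of 129 such entries, 31 (24%) were at least 2-fold apart in share, with counts under 3 set to 3, 14% higher in library 2 and 10.1% higher in library 1. None of the 4 entries was among them. A higher share in library 2, of any size, was found for 45.7% of the 129, and for miR-6240, miR-5126 and miR-6236 among the 4. At 1.5-fold, 24% of the 129 were higher in library 2 and 20.9% higher in library 1, and miR-5126 and miR-6236 were among the former. Many of the 129 rest on few counts. Among the 22 entries with at least 200 counts, 3 (13.6%) were at least 1.5-fold higher in library 2, namely miR-6236, miR-127-3p and miR-5126. Likewise 3 (13.6%) were at least 1.5-fold higher in library 1, namely miR-21a-3p, miR-21a-5p and miR-669a-5p. In that set miR-6236 had the highest log2 ratio, 0.92, miR-5126 ranked 3 at 0.80 and miR-6240 ranked 5 at 0.35, while miR-6539 ranked 13 at -0.06, and the median was -0.02. The names and cut of 200 counts were chosen with results of these data known.

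**Figure D3:**
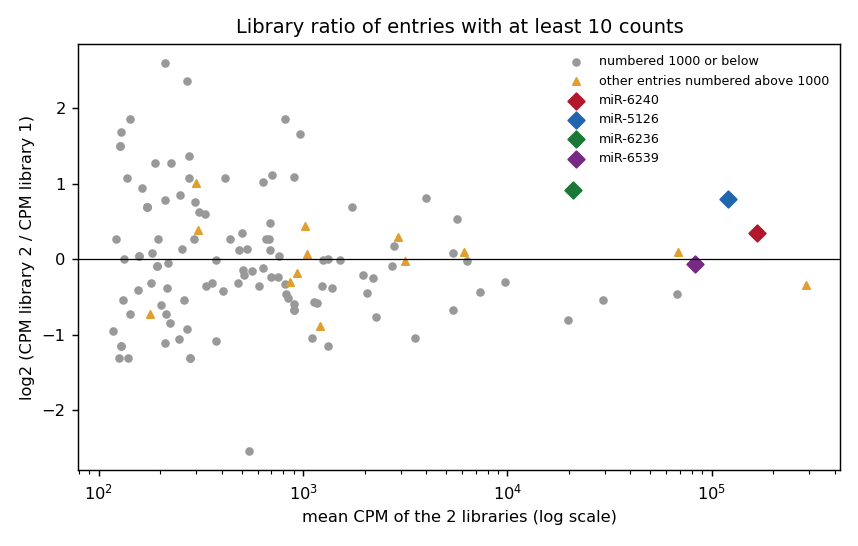
Log2 ratio of CPM in library 2 to library 1 (y axis) against the mean CPM of the 2 libraries (x axis, log scale) for 129 entries with at least 10 counts, where counts under 3 were set to 3. Diamonds mark the 4 entries, triangles the other entries numbered above 1000 and grey points those numbered 1000 or below; ratios spread widely at low CPM, miR-6236 lies at 0.92 and miR-5126 at 0.80, and miR-127-3p, a grey point of lower CPM, lies between them at 0.81.

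Whether the 4 entries varied together was examined with the ratio of 1 entry to another within each library, which no library scale can alter. Of the 6 pairs, 5 changed between the libraries by more than counting error. The pair that did not was miR-5126 and miR-6236: 6.02 counts of miR-5126 stood beside each count of miR-6236 in library 1 and 5.52 in library 2, a change of 0.917-fold (exact 95% interval 0.823 to 1.02). The interval does not show that they moved alike, since it still allows a change down to 0.823-fold. Each pairing of the 4 with miR-3963 or miR-5099, given below, also changed beyond counting error. Such a change is thus not particular to pairs among the 4.

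The entries linked to rRNA in general, miR-6240 and miR-6236, did not keep a constant ratio. There were 10.1 counts of miR-6240 per count of miR-6236 in library 1 and 6.84 in library 2, a change of 0.675-fold (0.607 to 0.749). Against miR-5126, miR-6240 changed by 0.736-fold (0.698 to 0.776). The entry miR-6539 stood furthest from the others: relative to it, miR-6236 was 1.98-fold higher in library 2 (1.77 to 2.21), miR-5126 1.81-fold (1.70 to 1.93) and miR-6240 1.33-fold (1.26 to 1.41). The order of the 4 by library ratio was thus miR-6236 and miR-5126, not told apart by their counts, then miR-6240, then miR-6539.

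The 4 were compared with miR-3963 and miR-5099, the other entries numbered above 1000 among the 10 most abundant. The leading entry miR-3963 went from 14612 to 9512 counts, a share 0.786-fold that of library 1 (0.765 to 0.806). The entry miR-5099 had 2996 and 2641 counts, 1.06-fold (1.01 to 1.12). Relative to miR-3963, all 4 entries were higher in library 2, from 1.22-fold for miR-6539 (1.16 to 1.29) to 2.41-fold for miR-6236 (2.18 to 2.67). Relative to miR-5099, miR-6539 was lower in library 2, at 0.901-fold (0.839 to 0.968), and the other three were higher, by 1.20-fold for miR-6240 (1.13 to 1.28), 1.63-fold for miR-5126 (1.53 to 1.75) and 1.78-fold for miR-6236 (1.59 to 1.99). The mature miR-3963 had 47.4% GC, above 32.2% of the mature sequences.

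The 843 miRNAs numbered 1000 or below hold the long-known families and summed to 11624 and 7784 counts. The most abundant of them, miR-182-5p, had 3539 and 2137, a share 0.729-fold that of library 1 (0.690 to 0.769). Per 100 of their counts, miR-6240 had 57.2 in library 1 (exact 95% interval 55.5 to 58.9) and 90.4 in library 2 (87.5 to 93.4). The entry miR-5126 had 33.9 per 100 (32.7 to 35.2) in library 1 and 72.9 (70.5 to 75.5) in library 2. The entry miR-6236 had 5.63 (5.20 to 6.10) and 13.2 (12.4 to 14.1). The entry miR-6539 had 33.1 (31.9 to 34.3) and 39.2 (37.6 to 40.9). On this measure all 4 were higher in library 2 beyond counting error, and their sum was 130 per 100 in library 1 and 216 in library 2. As both libraries carry the Dicer knockout, these values do not show the ratio in cells with Dicer. A higher value in library 2 on this measure is not particular to the 4. It adds 0.31 to the log2 ratio of every entry, and the median of the 129 entries, -0.05 on the total of the table, also becomes positive.

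Relative to these miRNAs, miR-6236 was 2.34-fold higher in library 2 (2.12 to 2.59), miR-5126 2.15-fold (2.06 to 2.24), miR-6240 1.58-fold (1.53 to 1.64) and miR-6539 1.19-fold (1.13 to 1.24). The scale shifts every log2 ratio by 0.31. With it, 19.4% of the 129 entries were at least 2-fold higher in library 2, miR-6236 and miR-5126 among them, and 3.88% were at least 2-fold higher in library 1. The direction of miR-6539 depended on the scale: its log2 ratio was 0.25 here and 0.21 on the total without the 4 entries. It was -0.06 on the table's total, -0.01 without the 10 most abundant entries, -0.02 with TMM scaling and -0.11 with DESeq2 size factors. The counting interval excluded a ratio of 1 with DESeq2 size factors, where the ratio was 0.927 (0.884 to 0.972), and on the pair of scales with a positive value. The direction of the other three was the same on all 6 scales, and so was the order of the 4, which is fixed because a scale moves all ratios alike. The total of the table itself holds the 4 entries, so a higher sum of them lowers every other share.

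**Figure D4:**
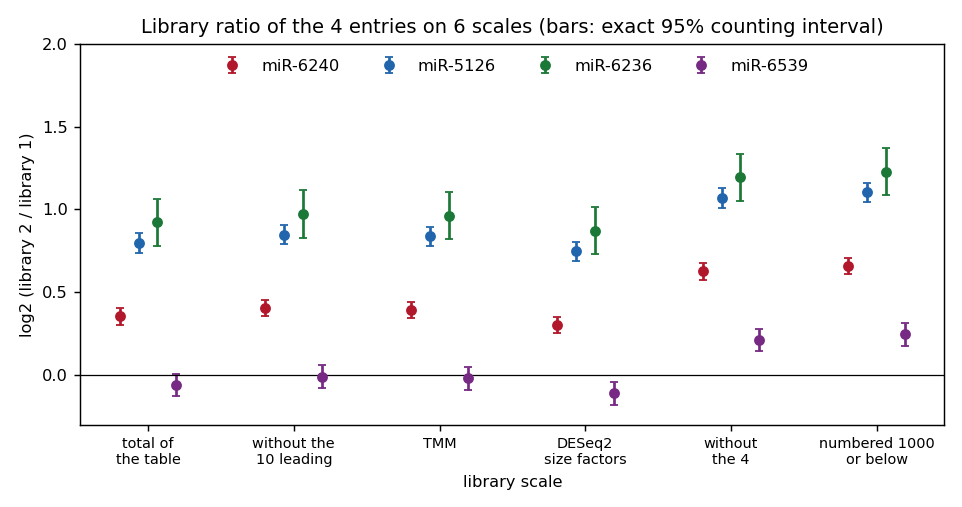
Log2 ratio of library 2 to library 1 (y axis) of the 4 entries on 6 library scales (x axis), with exact 95% intervals for counting error. The ratios of miR-6240, miR-5126 and miR-6236 lie above 0 on each scale, and miR-6539 lies between -0.11 and 0.25.

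Entries with a library ratio nearest to each of the 4 were taken from those with at least 200 counts. This likeness rests on 2 libraries and is a description of those values. Nearest to miR-6240 were miR-3535, with 118 and 120 counts, miR-295-3p and miR-16-5p. Nearest to miR-5126 was miR-127-3p, with 131 and 190 counts, then miR-6236 and miR-295-3p. Nearest to miR-6236 were miR-127-3p, miR-5126 and miR-295-3p. Nearest to miR-6539 were miR-292a-5p, miR-92a-3p, with 288 and 235 counts, and miR-5100. The entries miR-295-3p, miR-16-5p, miR-127-3p, miR-292a-5p and miR-92a-3p are long-known miRNAs, so such ratios were also measured in entries numbered 1000 or below.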

How the data were processed

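Small RNA libraries were made from total RNA of 2 Dicer knockout cell samples with the TruSeq small RNA kit, per the labels' protocols. The authors deposited raw counts per miRNA name, 1 column per sample, with totals of 45222 and 37476. The submitters' processing notes name cutadapt, STAR, featureCounts and mm10, without versions; the miRBase release and the treatment of reads that map to several places are not given in the sources used here.

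Shares, Wilson intervals, ratios with exact conditional binomial intervals and conditional odds ratios were computed at the 95% level. Only the intervals of the ratios and of the odds ratios were tested on simulated counts. The simulated counts held counting error only, which these intervals assume, so the spread between replicates was not covered. With 1 group, edgeR's quasi-likelihood test and DESeq2 have no contrast; they gave scaling factors only. Named by rule were the 4 entries, miR-3963, miR-5099, miR-182-5p, the 3 nearest entries in library ratio, entries with a shared seed and a list of entries linked to rRNA or tRNA. Other entries named, among them miR-5121, miR-3068-3p, miR-6538, miR-2137, miR-5122, miR-21a and miR-669a-5p, were chosen after their values were seen; the miR-290 to miR-295 cluster was added as a cell type marker. Members and lists were chosen with earlier results of these data known. Alternatives changed the library scale, denominator, count minimum, fold minimum and match rule. Positions are GRCm38, the assembly of mm10. Tools were edgeR 4.0.16 and DESeq2 1.42.0 in R 4.3.3, and scipy 1.17.1, ViennaRNA 2.7.2, pandas 2.3.3 and matplotlib 3.10.9 in Python 3.11.15.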

Additional observations from a re-analysis of the deposited data

How the results depend on the processing

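Of 54 values under alternatives other than leaving out a library, 34 stayed near the value reported and 20 moved. The limit was the SD of the 2 libraries for shares and counts per 100, and the counting interval for log2 ratios. For numbers of entries or matched genes it was a factor of 1.5, and for nearest entries the number of the 3 kept. The cause of a move was not tested except where the arithmetic fixes it. Without the most abundant entry in the denominator the mean shares were 23.4% for miR-6240, 16.6% for miR-5126, 11.7% for miR-6539 and 54.7% for the sum. The mean share of miR-6236 also rose, from 2.10% to 2.91%, and counted as near because its SD was 0.92. Scaled to the miRNAs numbered 1000 or below, the log2 ratios were 0.66 for miR-6240, 1.10 for miR-5126, 1.23 for miR-6236 and 0.25 for miR-6539. On the total without the 4 entries they were 0.63, 1.07, 1.19 and 0.21 in the same order. For miR-6240 the log2 ratio was also 0.40 on the total without the 10 most abundant entries and 0.30 with DESeq2 size factors. Without miR-182-5p in the denominator, miR-6240 had 103 and miR-6539 50.8 counts per 100 counts of miRNAs numbered 1000 or below, as a mean of the libraries. The other entries of the 4 rose as well, miR-5126 from 53.4 to 74.7 and miR-6236 from 9.42 to 13.2. They counted as near because their SDs were 27.6 and 5.35, which does not show that they were more stable. The number of entries at least 2-fold apart, 31 of 129 tested, was 8 of 61 tested with at least 50 counts. At least 1.5-fold apart were 58 of the 129. With 18 consecutive bases miR-5126 matched 3 genes. With at least 50 counts, 1 of the 3 entries nearest to miR-6240 was kept. Leaving out 1 library in turn, which with 2 libraries cannot move a mean by more than its SD and so says nothing about stability, gave 33.4% to 44.8% for the sum of the 4 entries, 1.45% to 2.74% for miR-6236 and 8.73% to 15.2% for miR-5126, moves of over 1.5 times between the libraries for miR-6236 and miR-5126. Per 100 counts of miRNAs numbered 1000 or below the 2 libraries gave 5.63 and 13.2 for miR-6236. No paired analysis was possible because both libraries belong to the same group.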

Other observations

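Entries of high GC content outside the 4 were counted, after the composition of the 4 had been seen. Of the entries with at least 10 counts and a mature sequence, 12 others had 60% GC or more, with 345 and 323 counts in sum in libraries 1 and 2. The 88 others under 60% GC had 25308 and 16667 counts. Of the 12, 8 had a higher share in library 2, against 36 of the 88. The most GC-rich of them were miR-6538 at 94.7% GC, with 39 and 44 counts, miR-2137 at 85.7%, with 9 and 15, and miR-5122 at 85.0%, with 46 and 40. Across all 103 such entries, which share the same 2 libraries and are not independent replicates, GC content and log2 ratio had a Pearson's r of 0.18 and a Spearman's rho of 0.19, and 0.13 and 0.15 without the 4 entries. Over the 49 entries with at least 50 counts they were 0.25 and 0.21. These are given as values only; GC content and the source of the RNA were not told apart, and no cause was tested.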
